A study of Homo sapiens with 16 samples.

Results

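MCF10HER2 cells were treated with 1 µM CP724,714, which inhibits the kinase HER2, and RNA was taken from parallel cultures every 3 h. The line derives from MCF10A, a human breast epithelial line that is not transformed, and stably over expresses HER2, a receptor tyrosine kinase and oncogene of breast cancer. The arrays taken at 12, 15, 18 and 21 h were compared with those taken at 6 and 9 h, which is 6 of the 16 arrays of the series, 4 against 2. Both groups received the drug, in serum-free medium that held epidermal growth factor (EGF) and hydrocortisone and to which no insulin was added. The medium was also changed at the start of treatment. The groups therefore differ in the time since the drug was added and not in treatment. Time since the drug and time since fresh medium run together and cannot be told apart. The question was which transcripts changed when expression passed from the early response into the plateau that followed. There is 1 array per time and no replicate, the culture at 0 h is the only untreated one, and no vehicle control of a later time was analysed here. The spread within a group is therefore that between arrays of different times, and p-values measure only this spread, while time and the handling of the arrays cannot be told apart.

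The eukaryotic cell cycle runs from growth factor signals through cyclin D and its kinases to the E2F transcription factors, which switch on the genes of DNA synthesis. A second wave of genes, those of chromosome condensation, the spindle and cytokinesis, is transcribed later, before and during mitosis. Many of its promoters are bound by the DREAM and MMB complexes at a short element, the cell cycle genes homology region (CHR). Many also hold another short element, the CCAAT box, which is not the site of these complexes. In breast epithelial cells, signaling from EGF and HER2 feeds into the first of these steps, and arrest in G1 lowers both groups of transcripts. In a bulk RNA sample, fewer cells in a phase and less RNA per cell cannot be told apart.

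The 6 arrays had an upper quartile intensity between 397 and 606, lowest at 9 h (397) and 18 h (418), and 10363 to 11117 of 20589 probes were detected on each. All 6 had a similar background, with a median intensity of undetected probes between 135.9 and 144.2. Of 9 tested breast epithelial markers, 7 were detected on all 6 arrays, and the keratin KRT5 had a log2 signal of 14.53 to 15.19. Of 8 fibroblast markers only DCN was tested, and the defining collagen genes were not. DCN was higher at 12-21 h, by 0.54 on the log2 scale (limma, adjusted p under 0.05). Of 8 leukocyte markers CD68, CD14 and PTPRC were tested, and the T cell and B cell markers were not. The ERBB2 probe that was tested lay near background, at 6.25 and 6.05 at 6 and 9 h and between 5.76 and 6.21 from 12 to 21 h, a difference that did not pass the test (-0.20, SE 0.18, limma adjusted p = 0.433). It was detected on both early arrays and on 1 of the 4 later ones, so over expression of HER2 in the line cannot be read from it.

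The step between the 9 h and the 12 h array was the largest of the 15 steps between successive arrays. Its size, the root mean square (RMS) of the log2 differences of the tested probes, was 0.513, against 0.470, 0.468 and 0.406 for the steps before it and 0.185 to 0.328 for those after it. At this step 436 probes were higher by 2-fold or more and 207 were lower. The dim 9 h array lies on one side of this step. Without background correction the step was 0.355 and with median scaling 0.615, and it ranked first in both. From 12 h on the arrays were close to each other: the correlation across probes was 0.991 to 0.995 within 12-21 h and 0.963 to 0.974 between those arrays and the earlier pair, which correlated with each other at 0.984. Genes are not independent replicates, and all arrays share probe brightness.

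**Figure D1:**
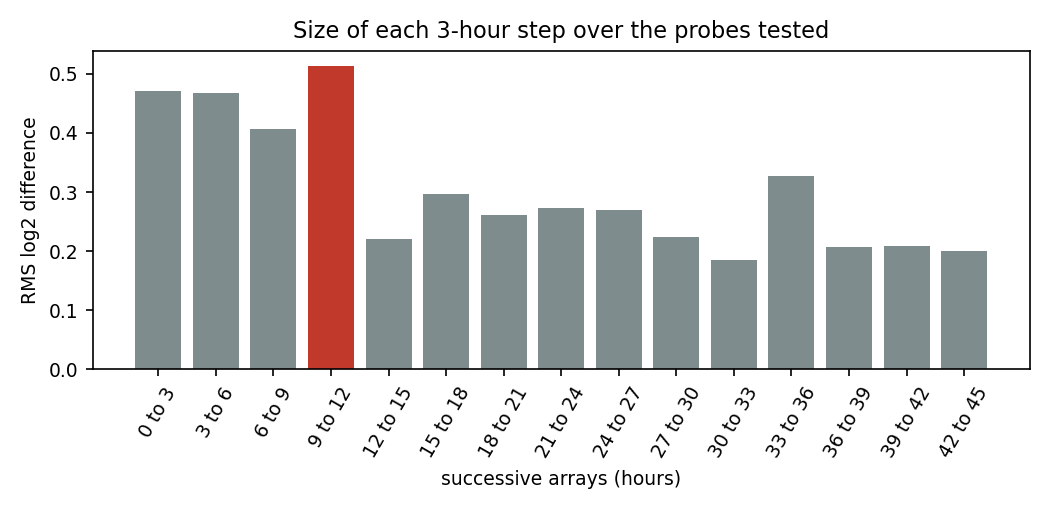
Root mean square log2 difference over the tested probes (vertical axis) for each of the 15 steps between successive arrays (horizontal axis, hours). The step from 9 to 12 h is the highest at 0.513, and the 3 steps that follow it lie between 0.221 and 0.297.

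Of the 20589 probes, 11683 (56.7%, with 10999 symbols) were detected on 2 or more of the 6 arrays and tested with limma. At an adjusted p under 0.05, 1882 probes (16.1%) were higher and 1826 (15.6%) lower at 12-21 h, with a median difference of 1.57-fold. A change of 2-fold or more was seen for 449 higher and 213 lower probes, and one of 4-fold or more for 20 and 14. The balance between the directions depends on the scaling. When arrays were scaled to their medians and not quantile normalized (median scaling), 2765 probes were higher and 467 lower, so the share of calls that were higher went from 50.8% to 85.6%, and the median difference of all tested probes moved from -0.03 to 0.18 on the log2 scale. Among the called probes 150 of those higher were not detected at 6-9 h and 36 of those lower were not detected at 12-21 h. For 80% of the called probes, and 41.3% of all tested ones, the step from 9 to 12 h was the largest of the 5 steps from 6 to 21 h. Whether the change at 12 h differed from the change before it was tested as a second difference, the step minus the change from the mean of 0 and 3 h to the mean of 6 and 9 h. It was above 0 for 11.2% of the probes and below 0 for 11.3% (limma, adjusted p under 0.05).

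Genes of replication and mitosis were among the 10 largest rises: KIF15, SPBC25, CENPH, RRM2 and CDC45L. The promoters of the 3 members of the DNA replication list and of the mitosis list that rose most are shown, because members of each list moved together. They are the 250 bases before the first transcription start given by RefSeq (GRCh38.p14), 5′ to 3′ on the gene's strand. Capitals mark the CCAAT box (CCAAT, or ATTGG on the other strand), the CHR element (TTTGAA or TTCAAA) and the E2F core (GCGGGAA or TTCCCGC), and no match overlaps another in these windows.
RRM2, chr2:10122489-10122738, plus strand: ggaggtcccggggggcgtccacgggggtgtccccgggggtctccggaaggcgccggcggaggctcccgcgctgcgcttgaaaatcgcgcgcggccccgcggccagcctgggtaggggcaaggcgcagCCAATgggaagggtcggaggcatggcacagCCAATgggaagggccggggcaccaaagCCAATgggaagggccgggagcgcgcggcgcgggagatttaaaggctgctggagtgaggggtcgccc
CDC45L (now CDC45), chr22:19479670-19479919, plus strand: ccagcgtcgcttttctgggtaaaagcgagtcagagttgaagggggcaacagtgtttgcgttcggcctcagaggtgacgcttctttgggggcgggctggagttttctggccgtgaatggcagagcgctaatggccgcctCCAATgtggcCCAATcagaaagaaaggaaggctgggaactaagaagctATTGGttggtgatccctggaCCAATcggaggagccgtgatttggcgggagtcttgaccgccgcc
E2F7, chr12:77065570-77065819, minus strand: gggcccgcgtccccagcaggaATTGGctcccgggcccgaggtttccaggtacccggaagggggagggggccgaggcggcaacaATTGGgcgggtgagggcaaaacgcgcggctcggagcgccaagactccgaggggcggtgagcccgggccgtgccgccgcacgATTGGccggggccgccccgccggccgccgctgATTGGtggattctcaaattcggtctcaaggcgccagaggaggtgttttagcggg
KIF15, chr3:44761544-44761793, plus strand: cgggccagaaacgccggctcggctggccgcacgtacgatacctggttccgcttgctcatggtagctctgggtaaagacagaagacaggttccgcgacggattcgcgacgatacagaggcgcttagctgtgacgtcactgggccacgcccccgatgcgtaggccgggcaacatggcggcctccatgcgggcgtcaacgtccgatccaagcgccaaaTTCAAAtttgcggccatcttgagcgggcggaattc
SPBC25 (now SPC25), chr2:168890431-168890680, minus strand: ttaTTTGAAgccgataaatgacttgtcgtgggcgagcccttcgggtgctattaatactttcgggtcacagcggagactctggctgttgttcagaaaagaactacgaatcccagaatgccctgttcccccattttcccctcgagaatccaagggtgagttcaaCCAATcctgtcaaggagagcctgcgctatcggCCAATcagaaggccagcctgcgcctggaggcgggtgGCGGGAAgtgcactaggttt
CDCA3, chr12:6851287-6851536, minus strand: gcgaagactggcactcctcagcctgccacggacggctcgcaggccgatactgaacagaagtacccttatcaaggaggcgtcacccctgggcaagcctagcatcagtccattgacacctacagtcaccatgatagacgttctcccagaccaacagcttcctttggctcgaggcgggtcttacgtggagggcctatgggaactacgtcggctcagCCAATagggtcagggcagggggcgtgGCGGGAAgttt

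Both strands of all such promoters were searched for these letters. Of the 46 replication genes and 76 mitosis genes called higher, 38 and 61 had a promoter in the table. The E2F core was found in 39.5% of the replication promoters and 13.1% of the mitosis promoters, against 8.89% of the promoters of 8302 tested genes and 5.59% of all 27305. The CHR element was found in 5.26% of the replication and 45.9% of the mitosis promoters, against 8.81% of tested genes and 13.6% of all. The CCAAT box was found in 55.3% and 72.1%, against 35.9% and 33%. Both the CHR element and the CCAAT box were found in 39.3% of the mitosis promoters, 5.26% of the replication promoters, 3.7% of tested genes and 4.85% of all. These shares are descriptions without a test, and a match is not a binding site. They belong to genes chosen for the lists, and members not called higher were not compared, so the shares do not bear on the step. RRM2, CDC45L and E2F7 hold several CCAAT boxes and neither of the other motifs, SPBC25 holds all 3 motifs, and KIF15 holds a CHR element alone.

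Most genes of DNA replication and the G1/S transition were higher at 12-21 h. Of 66 genes in the list 59 were tested, and 46 rose (78%) and 2 fell (3.39%), against 16.1% and 15.6% of all tested probes. The median difference was 1.05 on the log2 scale, against -0.03 for all tested probes. Of the 54 detected in both groups 42 rose. The list's median was 0.63 without the 6 h array, 1.52 without the 9 h array and 0.59 with background moments taken from all probes. The rises took in the helicase and its loading factors (CDC45L, MCM2, MCM3, MCM4, MCM6, MCM7, ORC1L, CDT1), polymerase subunits (POLE2, POLD1, PRIM1), clamp loaders (RFC2 to RFC5) and the makers of deoxynucleotides (RRM1, RRM2, TYMS, TK1).

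RRM2, the small subunit of ribonucleotide reductase, had a log2 signal of 6.69 and 7.62 at 6 and 9 h, and of 9.81, 9.78, 9.51 and 9.25 at 12, 15, 18 and 21 h. The groups did not overlap, as held for 47.5% of all tested probes, and the difference was 2.43 (SE 0.24, 5.39-fold, limma adjusted p = 3.02e-05). CDC45L, part of the replicative helicase, was at 6.18 and 7.59 and then at 9.31, 9.11, 9.21 and 8.98 (2.27, SE 0.30, limma adjusted p = 0.000185). In both genes the 9 h array already lay above the 6 h array. E2F7, an E2F family repressor, was not detected at 6 or 9 h (5.76 and 5.57) and was at 8.25, 8.11, 7.50 and 7.63 afterwards, at least 3.49-fold higher (limma adjusted p = 3.81e-05). This bound sets the later mean against the lowest signal at which probes are detected on the early arrays. BRCA1, a DNA repair gene, rose from 6.39 and 7.36 to 9.23, 9.13, 8.56 and 8.58 (limma adjusted p = 0.000263), while its dimmer second probe did not pass the test (0.35, limma adjusted p = 0.152). DCC1 (now DSCC1), a factor of sister chromatid cohesion, rose from 7.32 and 8.76 to between 9.82 and 10.22 (limma adjusted p = 0.000429). PCNA, the sliding clamp of the polymerases, was bright throughout, at 12.14 and 12.25 and then between 12.82 and 13.14, and rose 1.71-fold (limma adjusted p = 0.000131).

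Not all G1/S genes moved. MCM5, a helicase subunit, was at 8.97 and 9.97 at 6 and 9 h and at 10.28, 9.92, 9.74 and 9.71 afterwards, so the groups overlap and the difference did not pass the test (0.44, SE 0.24, limma adjusted p = 0.189). CDC6, a loading factor of the helicase, was near background on every array (5.76 to 6.32, limma adjusted p = 0.329). E2F1 was at 7.62 and 8.47 and then between 8.41 and 8.96, just past the threshold (0.68, limma adjusted p = 0.046), and it did not pass without the 6 h array (0.26, limma adjusted p = 0.417). CCNE2, the cyclin that acts at G1/S, was detected on 1 of the 6 arrays and not tested. The 2 members that fell were UNG2, at 10.17 and 10.25 and then between 9.43 and 9.53 (limma adjusted p = 8e-04), and the polymerase subunit POLA (now POLA1), with a difference of -0.57 (limma adjusted p = 0.00851). UNG2 was taken as the uracil glycosylase gene UNG from its symbol alone, and the sequence of the probe was not checked.

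Genes of mitosis and G2/M rose nearly as 1 group. Of 82 genes 78 were tested, and 76 rose (97.4%, against 16.1% of all tested probes), with a median difference of 1.33. At an adjusted p under 0.05, and also at an unadjusted one, 0 fell (limma). Of the 77 detected in both groups 75 rose. BUB3 (0.17, limma adjusted p = 0.133) and BRRN1 (-0.24, limma adjusted p = 0.493) did not pass. The kinesins KIF15, KIF20A, KIF11, KIF2C, KIF4A, KIF14 and KIF23, the kinetochore genes SPBC25, CENPA, CENPE, CENPF and KNTC2, the kinases AURKB, STK6 (Aurora A), NEK2, TTK, BUB1 and PLK1, and the condensin subunits SMC2L1 and SMC4L1 were among those that rose.

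KIF15, a spindle kinesin, gave the largest rise of all tested probes that met the naming rule. It was not detected at 6 or 9 h (5.64 and 5.78), was at 7.47 at 0 h, and reached 8.73, 8.68, 8.45 and 8.66 from 12 to 21 h, at least 5.90-fold higher (limma adjusted p = 1.02e-06). SPBC25 (now SPC25), a subunit of the NDC80 kinetochore complex, was at 7.513 and 7.995 and then at 10.58, 10.51, 10.39 and 10.19, a rise of 6.34-fold (2.66, SE 0.17, limma adjusted p = 1.29e-06). CENPA, the histone H3 of centromeres, was at 9.63 and 9.37 and then at 11.23, 11.56, 11.62 and 11.69 (4.07-fold, limma adjusted p = 2.15e-06). In each of these genes the 4 later arrays lay above both early ones. Of all tested probes 47.5% had groups without overlap, in either direction. The cyclin CCNB1, partner of CDC2 at entry into mitosis, was at 9.11 and 9.13 and then at 10.52, 10.72, 11.08 and 11.43 (3.52-fold, limma adjusted p = 6.16e-05). CDC2 (now CDK1) itself was at 10.82 and 10.78 and then between 12.30 and 12.45 (1.58, SE 0.09, limma adjusted p = 1.02e-06), and its second probe rose by 1.79. CDC20, an activator of the anaphase-promoting complex, was at 12.89 and 12.97 and then at 13.61, 14.06, 13.94 and 14.27 (2.06-fold, limma adjusted p = 2e-04).

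The other proliferation markers followed. TOP2A, the DNA topoisomerase of dividing cells, was at 10.68 and 10.21 and then between 12.07 and 12.44 (3.50-fold, limma adjusted p = 3.45e-06). CCNA2, the cyclin of S phase and G2, was at 9.77 and 10.32 and then between 11.24 and 11.46 (2.47-fold, limma adjusted p = 5.31e-05). MKI67, which encodes the proliferation antigen Ki-67, was at 7.21 and 6.53 and then at 7.89, 7.82, 8.30 and 7.56 (limma adjusted p = 0.00689), and PLK1, a mitotic kinase, was at 7.04 and 7.27 and then at 7.50, 7.85, 8.06 and 8.14 (limma adjusted p = 0.0168). Both of these did not pass under some alternatives: MKI67 without the dim 9 h and 18 h arrays (0.54, limma adjusted p = 0.0552) and PLK1 without the 6 h array (0.62, limma adjusted p = 0.0747). Other genes of chromosome biology among the 10 largest rises were KIAA1794 (now FANCI), of the Fanconi anemia pathway, GAJ (now MND1), of recombination, CENPH, RAD51AP1 and the transcription factor MXD3. Each was detected on all 6 arrays and rose 5.30 to 6.55-fold, with limma adjusted p of 3.75e-06 or lower. Lack of overlap between the groups was a condition of this ranking and held for 47.5% of all tested probes.

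**Figure D2:**
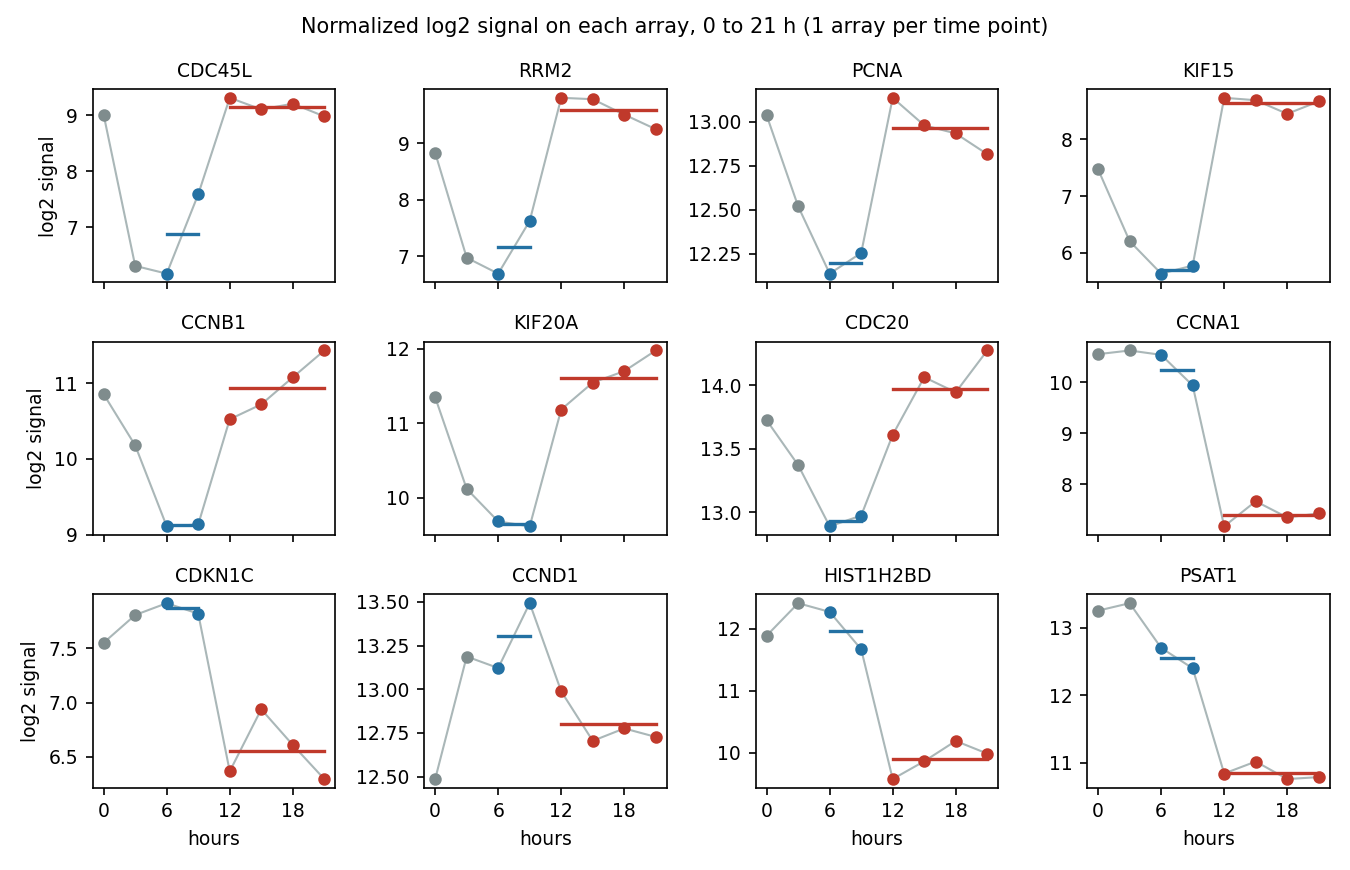
Normalized log2 signal (vertical axes, 1 scale per panel) of 12 genes on the 8 arrays from 0 to 21 h (horizontal axes), 1 array per time point and no error bars. RRM2 and CDC45L are higher at 9 h than at 6 h, CCNB1 climbs from 10.52 at 12 h to 11.43 at 21 h, and CCNA1 drops from 9.94 at 9 h to 7.17 at 12 h.

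The 2 lists differed in when they moved. Between 6 and 9 h the median change of the replication list was 0.78 and that of the mitosis list 0.04. At 9 h 51 of the 59 replication genes were higher than at 6 h, 37 of them by 1.5-fold or more, whereas 41 of the 78 mitosis genes were higher and 4 by that much. Of all tested probes 49.9% were higher at 9 h and 6.39% by 1.5-fold or more. Between 9 and 12 h the medians were 0.79 and 1.19. The second difference was above 0 for 72 mitosis genes and for 30 replication genes, and below it for 1 replication gene (limma, adjusted p under 0.05). Of all tested probes 11.2% were above 0 and 11.3% below. This contrast subtracts the change from 0-3 h to 6-9 h, with medians of -0.61 for the mitosis list and -0.12 for the replication list. It therefore mixes the earlier drop with the change at 12 h and does not date the rise by itself. These timings compare single arrays, of which the 9 h array was dim, and have no replicate check.

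The course within the plateau also differed. A slope on time over the 4 arrays from 12 to 21 h, a test chosen after seeing the data, was above 0 for 0.437% of all tested probes and below 0 for 0.368% at an adjusted p under 0.05 (limma). In the mitosis list 11 genes were called rising, and 65 of 78 had a slope above 0, against 50.3% of all probes. Without the dim 18 h array 21 mitosis genes were called rising and 8 replication genes falling. CCNB1 rose by 0.92 over 9 h (limma adjusted p = 0.0024), HMMR, a spindle protein, by 0.78 (limma adjusted p = 0.00607), KIF20A by 0.76 (limma adjusted p = 0.00482) and CDC20 by 0.56 (limma adjusted p = 0.0202). In the replication list 4 of 59 genes had a slope above 0 and 4 were called falling, among them MCM10, a replication initiation factor, which was at 9.44 at 12 h and 8.46 at 21 h (limma adjusted p = 0.0136). The highest of the 4 arrays was that at 12 h for 37 replication genes and that at 21 h for 0. For the mitosis genes it was that at 21 h in 45 and that at 12 h in 5. Of all tested probes 25.1% were highest at 12 h and 23.9% at 21 h. With median scaling 0 members of either list had a called slope in limma, and at an unadjusted p under 0.05 there were 9 rising mitosis genes and 2 falling replication genes. In that setting 8 replication and 66 mitosis genes had a slope above 0, against 57% of all probes.

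Set against the whole course, these rises followed a drop. At 3 h 57 of the 59 replication genes and 77 of the 78 mitosis genes were lower than at 0 h, against 47.9% of all tested probes. The mean of 12-21 h lay above the 0 h array in 44 and 58 genes, against 51.7% of all probes. The mean of 36-45 h, on arrays with a higher background, lay below that of 12-21 h in 57 replication genes and all 78 mitosis genes, against 48.8% of all probes.

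**Figure D3:**
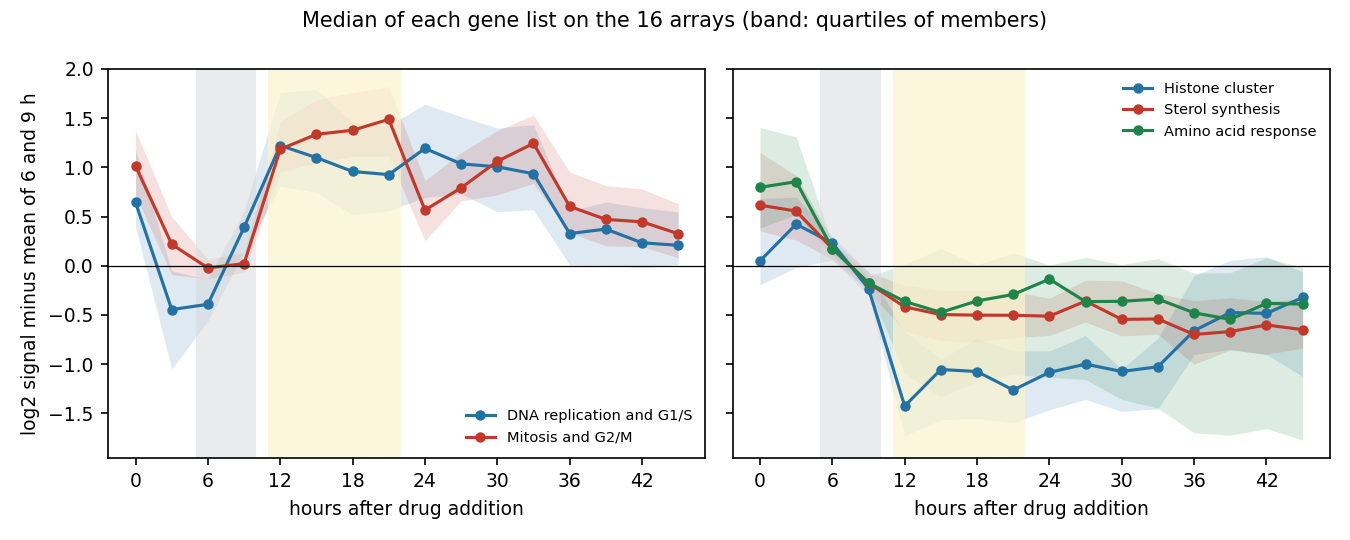
Median of the tested members of 5 gene lists on the 16 arrays (vertical axis, log2 signal minus the gene's mean of 6 and 9 h) against hours after drug addition, with bands for the quartiles of members. The replication list leaves the 6 h level at 9 h and the mitosis list at 12 h. The histone, sterol synthesis and amino acid response lists are already below 0 at 9 h (-0.231, -0.175 and -0.175). They lie lower at 12 h (-1.42, -0.42 and -0.36).

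The genes that govern entry into the cycle moved less uniformly. Of 26 tested cyclin D, CDK and inhibitor genes 5 rose and 5 fell (19.2% each, near the 16.1% and 15.6% of all tested probes), with a median of -0.03. Without the 15 h array 3 were called higher, and with median scaling 9 were called higher and 1 lower. PKMYT1, a kinase that inhibits CDC2, rose most, from 8.49 and 8.92 to between 9.70 and 10.11 (1.23, limma adjusted p = 0.000244), followed by RBL2 (0.89), CDK4 (0.79), SKP2 (0.61) and CDK2 (0.33). CDKN1C, which encodes the CDK inhibitor p57, fell most, from 7.92 and 7.82 to 6.37, 6.94, 6.61 and 6.30 (-1.32, SE 0.21, limma adjusted p = 0.000609). E2F5 (-0.66), CDK6 (-0.54) and CCND3 (-0.43) fell as well. CCND1, which encodes cyclin D1 and responds to growth factor signaling, was at 13.12 and 13.49 and then at 12.99, 12.71, 12.78 and 12.73, a fall of 1.42-fold (limma adjusted p = 0.00475), but with median scaling it did not pass the test (-0.19, limma adjusted p = 0.439). The CDK inhibitors CDKN1A (p21) and CDKN1B (p27) did not pass: CDKN1A was at 12.90 and 12.55 and then between 12.80 and 12.94 (0.14, limma adjusted p = 0.299), and CDKN1B at 10.13 and 9.99 and then between 9.98 and 10.70 (0.29, limma adjusted p = 0.215). With median scaling both were called higher (0.50 and 0.62). The 2 probes of CDKN2C (p18) gave opposite signs. The one at 8.63 and 8.81 early and 8.21 to 8.46 later did not pass (-0.41, limma adjusted p = 0.0612), and the other was not detected at 6-9 h and was higher later (limma adjusted p = 0.000362).

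The largest fall was that of CCNA1, which encodes cyclin A1, a cyclin best known from the germ line. It was at 10.55, 10.62, 10.54 and 9.94 from 0 to 9 h and then at 7.17, 7.66, 7.35 and 7.43, a fall of 7.13-fold (-2.83, SE 0.20, limma adjusted p = 2.4e-06), and it stayed between 7.09 and 7.64 to 45 h. CDC14B, a phosphatase that opposes CDKs, was at 14.76 and 13.63 and then between 11.59 and 11.77 (5.67-fold, limma adjusted p = 1.04e-05). It had already come down from 15.63 at 3 h, and its 2 dim probes did not follow it in size (-0.60 and 0.09). MMP3, a matrix protease, was at 8.48 and 7.67 and was not detected from 12 to 21 h, at least 4.15-fold lower (limma adjusted p = 9.3e-06). LCE3D, a late cornified envelope gene, was at 9.65 and 9.05 and then at 7.05, 7.12, 6.71 and 6.55 (5.63-fold, limma adjusted p = 1.29e-05). SPINK1, a secreted inhibitor of trypsin, was at 10.46 and 10.45 and then between 7.77 and 8.29 (5.60-fold, limma adjusted p = 2.35e-06). It had gone up from 8.10 at 0 h, so the later arrays were back near the untreated level. The remaining falls among the 10 largest were LSS, MGC14376, ASNS, HIST1H2BD and GBP1, by 4.17 to 5.20-fold. For LSS, lanosterol synthase of the sterol pathway, the brighter of the 2 probes fell by 0.80 and the other fell by 2.38 on the log2 scale.

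Histone genes were lower while the replication genes were higher. Of 13 tested histone cluster genes 10 fell (76.9%) and 1 rose (7.69%), against 15.6% and 16.1% of all tested probes, with a list median of -1.15. With median scaling 10 were called lower and the median was -0.81, and with background moments taken from all probes 10 were called lower and the median was -0.40. HIST1H2BD (now H2BC5) was at 12.27 and 11.67 and then at 9.58, 9.86, 10.19 and 9.99 (-2.07, SE 0.18, limma adjusted p = 1.27e-05). HIST1H4H (now H4C8) was at 8.53 and 7.93 and then between 6.09 and 6.47 (-1.90, limma adjusted p = 5.19e-05). HIST1H4C (now H4C3) was the exception: it was at 13.73 and 13.11 and then at 15.47, 15.63, 14.49 and 14.50 (3.03-fold, limma adjusted p = 0.00162), and its slope from 12 to 21 h was -1.22 over 9 h (limma adjusted p = 0.00371). As background, most histone mRNAs made in S phase end in a stem-loop and not a poly(A) tail, and oligo(dT)-primed labelling, usual for such arrays, reads those that carry a tail. Probes of this gene family can also share sequence.

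A class of genes was level through the first 9 h and fell at 12 h. To enter it a probe had to be called lower by 1.5-fold or more with a second difference below 0 past the threshold, to range over no more than 1.5-fold from 0 to 9 h, and to have all 4 arrays of 12-21 h below all 4 of 0-9 h. These conditions held for 143 probes, 1.22% of those tested, and the mirror image for 113 (0.967%). Because the class was defined by these values, its size is a description. It depends on the processing: with median scaling 13 probes met the conditions for a fall, 5 of them among the 143, and with the dim 9 h and 18 h arrays left out 297 did. The conditions for a rise were met by 124 probes with median scaling, 43 of them among the 113. Relative to 0-9 h the median of the falls was -0.69 at 12 h and -0.71 at 21 h, and it had come back to -0.38 by 45 h. In 76 of the 143 every array from 24 to 45 h also lay below every array from 0 to 9 h.

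The 6 largest falls of this class were VGF, MAPRE2, DHDH, WIPI1, KRT6B and CSTA. VGF, which encodes a secreted neuropeptide precursor, was between 10.44 and 10.70 on the 4 arrays to 9 h and then at 9.13, 8.65, 8.73 and 8.91 (3.23-fold, limma adjusted p = 1.87e-05). MAPRE2, of the family of microtubule end-binding proteins, was between 8.45 and 8.85 and then at 6.64, 6.92, 6.94 and 7.03 (3.20-fold, limma adjusted p = 4.34e-05). WIPI1, an autophagy protein, was between 9.63 and 10.09 and then at 8.22, 8.52, 8.42 and 8.55 (2.98-fold, limma adjusted p = 2.27e-05). The keratin KRT6B, of activated and stratified epithelia, was at 13.61, 13.66, 13.79 and 14.03 to 9 h and at 12.35, 12.35, 12.42 and 12.30 afterwards (-1.56, SE 0.09, limma adjusted p = 1.02e-06). CSTA, a cysteine protease inhibitor of the epidermis, was between 9.47 and 10.03 and then between 8.14 and 8.51 (2.77-fold, limma adjusted p = 7.15e-05). The class also held CDKN1C, PHGDH, the glucose transporter SLC2A1 (GLUT1), the apoptosis gene BAX and the chaperone gene HYOU1.

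Among the rises that began at 12 h, NICN1 and LOC387921 were not detected at 6 or 9 h, and NICN1 was at least 3.10-fold higher afterwards (limma adjusted p = 1.7e-05). SLC38A6, of a family of amino acid transporters, was between 7.19 and 7.55 to 9 h and then at 8.85, 8.88, 8.61 and 8.95 (3.03-fold, limma adjusted p = 3.3e-05). TNFRSF6B, a soluble decoy receptor for FAS ligand, was between 7.97 and 8.11 and then at 9.86, 9.78, 9.42 and 9.20 (2.95-fold, limma adjusted p = 0.000102), whereas its second probe did not pass (-0.36, limma adjusted p = 0.096). CD68, a lysosomal glycoprotein abundant in macrophages, was between 9.10 and 9.67 and then at 10.98, 10.87, 11.20 and 11.09 (2.91-fold, limma adjusted p = 1.14e-05). CD14, another marker of monocytes, rose as well (1.11, limma adjusted p = 0.00516), while the leukocyte marker PTPRC lay between 5.52 and 6.05 and was detected on 2 of the 6 arrays. CA9, a carbonic anhydrase known as a hypoxia target, was between 6.26 and 6.69 and then between 8.11 and 8.27 (2.84-fold, limma adjusted p = 4.84e-05). Of 13 tested hypoxia genes it was the only one called higher (7.69%, against 16.1% of all tested probes), and 5 fell (38.5%, against 15.6%). The median of the hypoxia list was -0.43, and it was -0.32 without the 6 h array and -0.28 without the 9 h array. Without the 18 h or the 21 h array 4 hypoxia genes were called lower. For the rises the class median was 0.73 at 12 h and 0.56 at 45 h, and 76 of the 113 stayed above every array of 0-9 h.

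**Figure D4:**
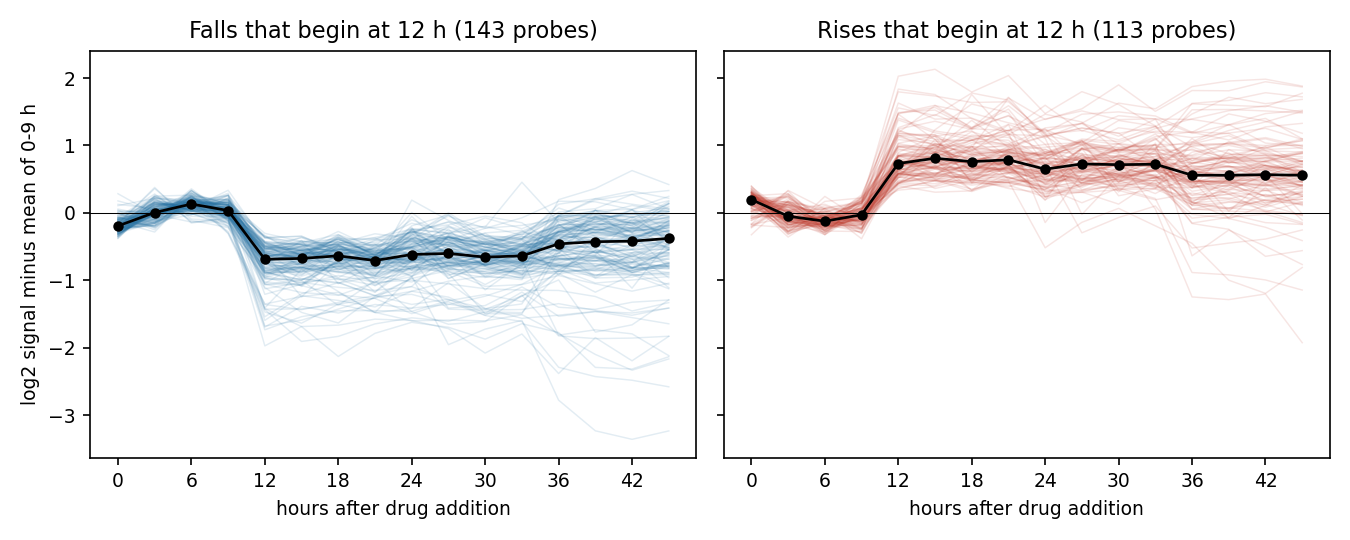
Log2 signal minus the mean of 0-9 h (vertical axis) against hours after drug addition for the 143 probes that fell and the 113 that rose at 12 h. The medians lie at -0.69 and 0.73 at 12 h and at -0.38 and 0.56 at 45 h, and the shape up to 21 h is fixed by how the probes were chosen.

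Metabolic genes fell on balance in several lists, and part of this fall had begun earlier. Of 24 tested sterol synthesis genes 15 fell (62.5%, against 15.6% of all tested probes), with a median of -0.49. At an adjusted or an unadjusted p under 0.05, 0 rose (limma), against 16.1% of all tested probes at the adjusted one. MVD, which makes isopentenyl diphosphate, was at 10.91 and 10.05 and then between 8.99 and 9.31 (-1.37, limma adjusted p = 0.000449), and DHCR7, the last reductase of cholesterol synthesis, was at 12.00 and 11.49 and then between 10.39 and 10.69 (-1.21, limma adjusted p = 9.48e-05). The median change of the list from 0-3 h to 6-9 h had been -0.59, and for 4 of its genes the second difference was above 0. INSIG1, a sterol-regulated brake of the pathway, had its fall before 6 h, from 12.75 at 3 h to 10.64, and neither probe changed in this step (0.15, limma adjusted p = 0.466, and -0.31, limma adjusted p = 0.211). With median scaling 5 of the sterol genes were called lower and the list's median was -0.17. Of all 11683 tested probes 467 were called lower in that setting, with a median of 0.18.

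Of 17 tested genes of the amino acid response, which ATF4 activates when amino acids are short, 7 fell (41.2%) and 2 rose (11.8%). Of all tested probes 15.6% fell and 16.1% rose. The median change of the list from 0-3 h to 6-9 h had been -0.76. Its second difference was above 0 for 7 genes and below it for 6 (limma, adjusted p under 0.05). The median of the step was -0.37, and it was -0.02 without the 6 h array and -0.72 without the 9 h array. Without the 9 h array 11 were called lower. ASNS, asparagine synthetase, was at 13.28 and 12.90 and then at 11.39, 11.14, 10.63 and 10.67 (4.39-fold, limma adjusted p = 1.51e-05). PSAT1, of serine synthesis, was at 12.70 and 12.40 and then at 10.84, 11.02, 10.76 and 10.79 (-1.70, SE 0.12, limma adjusted p = 2.15e-06). PHGDH, the first enzyme of serine synthesis, was between 13.07 and 13.51 on the 4 arrays to 9 h and then at 12.33, 12.21, 12.08 and 12.02 (1.95-fold, limma adjusted p = 3.41e-05). Of the amino acid transporters of the list SLC3A2 (-1.64), SLC7A5 (-1.54) and SLC7A11 (-1.14) fell. Of 18 aminoacyl-tRNA synthetases 10 fell (5 without the 6 h array) and 3 rose (6 without the 9 h array), with a median of -0.34, MARS falling most (-0.86, limma adjusted p = 0.000398) and VARS rising most (0.70, limma adjusted p = 0.00126). The median change of this list from 0-3 h to 6-9 h had been -0.40. Its calls depend on the scaling. With median scaling 0 were called lower in limma (1 at an unadjusted p under 0.05), 6 were called higher and the median was 0.01. In that setting 467 of all 11683 tested probes were called lower and 2765 higher, with a median of 0.18.

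Other lists moved as follows, where 16.1% of all tested probes were higher and 15.6% lower. With median scaling 2765 of all 11683 tested probes were higher and 467 lower, so fewer falls are called in any list under that setting. Of 19 glycolysis genes 9 rose, among them PFKM (1.01) and PGK1 (0.61), and 2 fell, the transporter SLC2A1 (-1.01, limma adjusted p = 0.000164) and the hexokinase HK2 (-0.62). Without the 6 h array 5 glycolysis genes were called higher. Of 15 nucleotide synthesis genes 6 rose (40%, against 16.1% of all tested probes) and 1 fell, and those called higher were 3 without the 6 h array and 10 without the 9 h array. Of 29 oxidative phosphorylation genes 11 rose (37.9%), by up to 0.75 for UQCRC2, and 1 fell, with 3 called lower without the 9 h array. In the NRF2 list of antioxidant genes 9 of 14 fell, led by HMOX1, heme oxygenase 1, which was at 8.61 and 7.14 and then between 5.87 and 6.34 (3.47-fold, limma adjusted p = 0.00131), and with median scaling 2 were called lower. Of 24 V-ATPase and lysosome genes 13 fell (54.2%) and 3 rose (12.5%, under the share of all tested probes). With median scaling 1 was called lower, and without the 15 h array 1 was called higher. SQSTM1, an autophagy receptor, was at 12.48 and 11.69 and then between 10.01 and 10.24 (4.02-fold, limma adjusted p = 1.19e-05), while the protease gene CTSB rose (0.86, limma adjusted p = 0.000621). The squamous differentiation genes split: 9 of 20 fell (45%, and 4 genes with median scaling), led by SPRR1B (-1.57) and KRT6B. The 5 that rose (25%) were led by the calcium-binding proteins S100A8 (1.59, limma adjusted p = 6.73e-05) and S100A9 (1.36, limma adjusted p = 0.000729). Of 10 tested interleukin and chemokine genes 2 rose (20%) and 1 fell (10%), with a median of 0.14. IL8 (now CXCL8), a chemokine and the largest rise of these, was at 7.36 and 6.30 and then at 8.02, 8.34, 8.95 and 9.24 (3.51-fold, limma adjusted p = 0.00189).

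**Figure D5:**
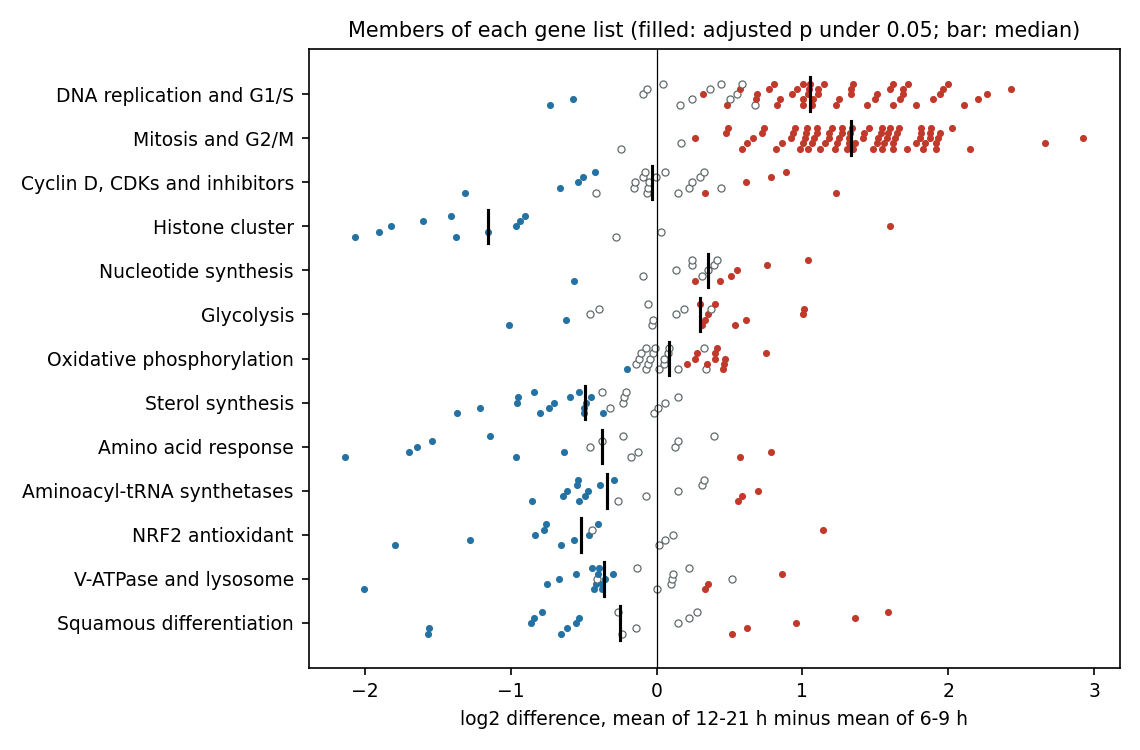
Log2 difference between the mean of 12-21 h and the mean of 6-9 h (horizontal axis) for each tested member of 13 gene lists, filled where the adjusted p was under 0.05, with a bar at each list's median. The mitosis and replication lists lie to the right with medians of 1.33 and 1.05, and the histone list lies to the left with a median of -1.15.

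Genes close to HER2 signaling were described by 2 lists and single probes. Of 18 tested MAPK feedback genes, the phosphatases and Sprouty proteins that ERK signaling induces, 4 fell (22.2%, against 15.6% of all tested probes; median -0.18) and 0 rose at an adjusted p under 0.05 in limma, with 1 higher at an unadjusted p. Without the 6 h array 1 was called lower and 2 higher, and without the 9 h array 6 were called lower. DUSP5 (-0.81) and PHLDA1 (-0.74) fell most. With median scaling 0 were called lower in limma (1 at an unadjusted p under 0.05) and 1 was called higher. Of all 11683 tested probes 467 were called lower and 2765 higher in that setting. Of 5 tested EGF family ligands NRG1 and HBEGF fell (both -0.86), which is 40% against 15.6% of all tested probes. The median of these ligands was -0.12, and it was -0.40 without the 6 h array and -0.22 without the 9 h array. Without the 15 h, the 18 h or the 21 h array 1 ligand was called lower. The brighter ERBB3 probe was at 11.50 and 11.02 and then at 10.38, 10.94, 10.91 and 10.70 (-0.53, limma adjusted p = 0.0325), which did not pass without the 6 h array (-0.29, limma adjusted p = 0.255). Of 3 tested EGFR probes 1 rose (0.72, limma adjusted p = 0.00712) and the others, at -0.40 and -0.54, did not pass. VAMP8, a SNARE protein of vesicle fusion, rose 1.31-fold, from 13.64 and 13.75 to between 14.00 and 14.19 (limma adjusted p = 0.0019). In the FOXO target list 2 of 18 rose (11.1%) and 3 fell (16.7%), and in the ribosome biogenesis list 4 of 23 rose (17.4%) and 3 fell (13%), shares near the 16.1% and 15.6% of all tested probes. Without the 9 h array 5 FOXO targets were called lower. Ribosome biogenesis genes called higher were 2 without the 6 h array and 9 without the 9 h array, and those called lower were 1 without the 15 h array and 1 without the 18 h array. In the p53 target list 6 of 20 rose (30%) and 4 fell (20%).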

How the data were processed

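RNA from 16 cultures was run on Illumina human Ref-8 v2 beadchips, 1 array per culture. The authors deposited the intensity of each of 20589 probes on each array, not background-subtracted and not normalized, and a detection p-value per probe and array. The software that summarised the beads and its version are not given in the sources used here. In 1482 probes (7.2%) the detection p-values were not whole multiples of 1 over 708, the number of negative controls implied by the others, and how they were made is not stated. Negative control moments were therefore inferred from the other probes.

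Intensities were corrected with normexp from these moments (offset 16), quantile normalized over the 16 arrays, as the study's methods name, and taken to log2 in limma 3.58.1 (R 4.3.3). The deposited values hold no log2 scale of the authors' own. The offset shrinks differences of dim probes. Probes with a detection p-value under 0.05 on 2 or more of the 6 arrays were tested with lmFit and eBayes (trend), two-sided, with Benjamini-Hochberg adjustment over all tested probes and a threshold of 0.05. An exact permutation test of 4 against 2 arrays cannot go below 0.0667 and was not used. The fits were tested on simulated data. The second difference used the 8 arrays from 0 to 21 h, with 0 h and 3 h a level each. List members have 1 probe per gene, the brightest over the 6 arrays.

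The comparison, the gene lists, the markers and the rule for named genes were chosen with earlier results of these data known. Genes named are the 10 largest rises and falls without overlap and detected on every array of the higher group, the 6 largest of each class beginning at 12 h, the 2 called members that moved most in each list (6 in the cell cycle lists), and a set of proliferation, CDK inhibitor, HER2 family and metabolic genes whatever their values. Other list members named by their difference were chosen after their values were seen. Symbols are those of the table, of which 13336 of 18190 are current and 3241 match 1 synonym in RefSeq (GRCh38.p14), which also gave the promoters. The alternatives covered background correction, normalization, the filter, probes per gene, the spread, array weights and leaving out arrays.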

Additional observations from a re-analysis of the deposited data

Results flagged for a closer look

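Among the 4 arrays of 12-21 h, 1 array stood apart from the other 3 (Dixon's test) for 9 of 119 named probes (7.56%), where chance gives about 1 in 20. LOC81691, a rise, was highest at 15 h (9.78). NOL5A was highest at 12 h (13.06). TSC22D3, a glucocorticoid-induced gene, was lowest at 12 h (12.68, against 13.34 on the nearest array). DBP, a transcription factor of the circadian output, was lowest at 21 h (7.82). SPRR1B was highest at 18 h (8.40) and TXNRD1 lowest at 18 h (9.67), on the dim array. SQSTM1 was highest at 21 h (10.24). The brighter INSIG1 probe was lowest at 18 h (10.39) and the other highest at 12 h (8.95). TSC22D3 did not pass the test when the 15 h array (0.53, limma adjusted p = 0.066) or the 9 h array (0.38, limma adjusted p = 0.151) was left out.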

How the results depend on the processing

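Each value was computed again under other settings, 1 change each. The median of tested probes, the settings on detection p-values, the slope and the joint removal of the 9 h and 12 h arrays were chosen after seeing the data. The number of called probes (3708) lay between 2874 and 4246 when 1 array was left out, 2700 with array weights and 4891 with all 16 arrays in 1 fit; where only 1 early array was left it was assumed to vary like the others. With median scaling 467 probes were lower in the step and 343 had a second difference below 0, against 1826 and 1325. Scaling to the median of the tested probes gave 1674 higher and 2072 lower (44.7% of calls higher, median -0.14). Falls beginning at 12 h (143) were 26 at 2-fold, 13 with median scaling and 297 without the 9 h and 18 h arrays, of which 116 were shared. Rises (113) were 32 at 2-fold, 124 with median scaling, of which 43 were shared, and 260 without the 9 h and 18 h arrays, of which 89 were shared. Slopes within 12-21 h (51 above and 43 below 0) were 2 and 1 with median scaling and 158 and 150 without the 18 h array. The RMS step from 9 to 12 h was 0.615 with median scaling and 0.355 without background correction. With median scaling the members called lower were 5 for sterol synthesis (15), 2 for NRF2 (9), 1 for V-ATPase and lysosome (13) and 0 for tRNA synthetases (10), in limma, with 1 at an unadjusted p under 0.05. Leaving out single arrays gave 6 to 11 lower amino acid response genes, the highest without the 9 h array, and, with the lowest without the 6 h array, 5 to 11 lower tRNA synthetases, 5 to 10 higher glycolysis genes and 33 to 52 higher replication genes. Of 108 called named probes 87 kept their call under every one of the 23 alternatives that tested them and 21 lost it under 1 or more. Signs turned only for probes not called: CDC6 was -0.15 with the median of tested probes, CDKN1A was -0.0042 without the 9 h and 18 h arrays and -0.049 without the 9 h and 12 h arrays, and with median scaling the dimmer ERBB3 probe was 0.038 and the dimmer INSIG1 probe 0.011. When 1 array was left out, MCM5 ranged from -0.061 (without the 6 h array) to 0.94 (without the 9 h array) and CDKN1A from -0.028 (without the 9 h array) to 0.32 (without the 6 h array). The cause of these changes was not tested. Dim probes are limited by the distance of their signal from background. No paired analysis was possible because the replicate numbers, given in accession order, only name arrays of different times.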

Other observations

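Genes of the circadian clock and of the glucocorticoid response were not described above. Of 13 tested clock genes 4 rose (30.8%, against 16.1% of all tested probes) and 2 fell (15.4%, against 15.6%). The balance depended on single arrays: 2 were called higher and 5 lower without the 9 h array (median -0.46), 5 higher and 1 lower without the 6 h array (median 0.37), and 2 higher and 2 lower without the 12 h, the 15 h or the 18 h array. DBP was at 6.90 and 7.02 and then at 8.18, 8.14, 8.15 and 7.82 (limma adjusted p = 0.000617), PER2 rose by 1.02, and CRY1 fell by 1.11 on the log2 scale. Of 12 tested glucocorticoid-responsive genes 3 rose (25%) and 1 fell (8.33%), with 2 called higher and 2 lower without the 9 h array. KLF9, a transcription factor, was at 11.39 and 11.04 and then between 12.11 and 12.47 (2.05-fold, limma adjusted p = 0.000131). Of 18 tested interferon response genes 6 rose (33.3%), led by IFI44 (1.04), with 3 called higher without the 21 h array, and 4 fell (22.2%), led by the GTPase gene GBP1, which was at 8.19 and 8.12 and then at 6.07, 5.94, 5.87 and 6.50 (limma adjusted p = 2.85e-05).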
